A study of Mus musculus with 4 samples.

Results

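The genes described here are Tnf, its receptors Tnfrsf1a and Tnfrsf1b, the adaptor gene Traf1, and the surface genes Cd40, Cd80, Cd86, Cd274, Icam1 and Tnfsf9, through which myeloid cells meet T cells. They were taken by symbol from a table of ribosome-protected fragment counts, and all 10 were found among its 22417 genes. The set was chosen by gene function with the fold changes between the genotypes in view, so their own differences are given as a description and support nothing beyond themselves; where a position past the threshold of the fit of all genes is given for one of them, it is a description too and not a test of the set. Both genotypes were mouse, with 2 libraries of Nat10 conditional knockout (cKO) bone-marrow-derived monocytes and 2 libraries of wild-type (WT) ones. All cells had been driven towards osteoclasts with the cytokine RANKL for 3 days, so WT cells carried the same treatment. Nat10 encodes the enzyme that acetylates cytidine in RNA, and the study asked what its loss does to mRNA translation during osteoclast formation. The sources used here give neither the promoter that drives the recombinase, nor the age of the mice, nor whether replicates came from separate animals or cultures. Any p-value therefore reflects the spread of these 4 libraries alone, which may be technical.

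TNF is made as a membrane-bound trimer, is shed by the protease ADAM17 and signals through TNFR1 (Tnfrsf1a), which carries a death domain, and TNFR2 (Tnfrsf1b), which does not and recruits TRAF proteins. In bone, TNF made by macrophages is known to add to RANKL in driving precursors towards osteoclasts. CD40 and the costimulatory ligands CD80, CD86 and 4-1BB ligand (Tnfsf9) allow an antigen-presenting cell to activate T cells. PD-L1 (Cd274) restrains T cells through PD-1, and ICAM-1 (Icam1) holds leukocytes together through the integrin LFA-1. Many of these genes are known targets of the transcription factor NF-kappa-B.

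The libraries held 1467611 and 1481083 counts in cKO and 906937 and 3014620 counts in WT. WT replicate 2 stood apart: it was the deepest and yet had counts for only 9402 genes, where the others had counts for 10508 to 10798, and log2 CPM (CPM, counts scaled to a common library total) correlated at 0.923 between the cKO libraries and at 0.797 between the WT libraries. Nat10 itself had 101 and 72 counts in cKO, with 77 and 148 counts in WT, 58.9 ± 14.7 against 67.8 ± 24.2 CPM (SD, n = 2 each), so counts over the whole gene do not check the genotype label. All 9 macrophage markers examined (Csf1r, Adgre1, Cd14 and others) and all 10 osteoclast markers (Acp5, Ctsk and others) had counts in every library. The macrophage list summed to 39620 and 35030 CPM in cKO, with 53649 and 68734 CPM in WT, and the osteoclast list to 8638 and 8013 CPM in cKO, with 12760 and 13560 CPM in WT. Most of the macrophage sum came from Lyz2 and Adgre1. Not every marker followed the sums: Cd14 had 1257 and 1320 CPM in cKO, with 1309 and 1141 CPM in WT, and the thinly covered Mrc1 (15.8 and 27.0 CPM in cKO, with 7.72 and 9.95 CPM in WT) and Calcr (8.23 and 9.44 CPM in cKO, with 2.21 and 1.03 CPM in WT) were higher in both cKO libraries.

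Across the set, Tnf, Cd40, Cd274 and Icam1 lay above both WT libraries in both cKO libraries, while Tnfrsf1a, Tnfrsf1b, Traf1 and Tnfsf9 had log2 fold changes between -0.14 and 0.15. Cd80 and Cd86, which share their receptors, had fold changes of opposite sign on few counts. All 10 genes passed the filter on low counts. Of the 10, 4 lay past an adjusted p of 0.05 in the edgeR quasi-likelihood fit of all genes, all higher in cKO, where 1.40% of the 7953 genes tested did so in either direction and 0.641% as higher in cKO. The groups did not overlap for 5 of the 10, 4 higher and 1 lower in cKO, where 45.2% of all genes tested had groups apart (22.7% higher and 22.6% lower). The median log2 fold change was 0.55 over the 10 genes and -0.01 over all genes tested. These counts come from the contrast that was in view when the genes were chosen, and nothing is read from them. In cultures sequenced in bulk, fewer cells of a type and less RNA per cell cannot be told apart, and a footprint count does not separate mRNA level from translation.

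**Figure D1:**
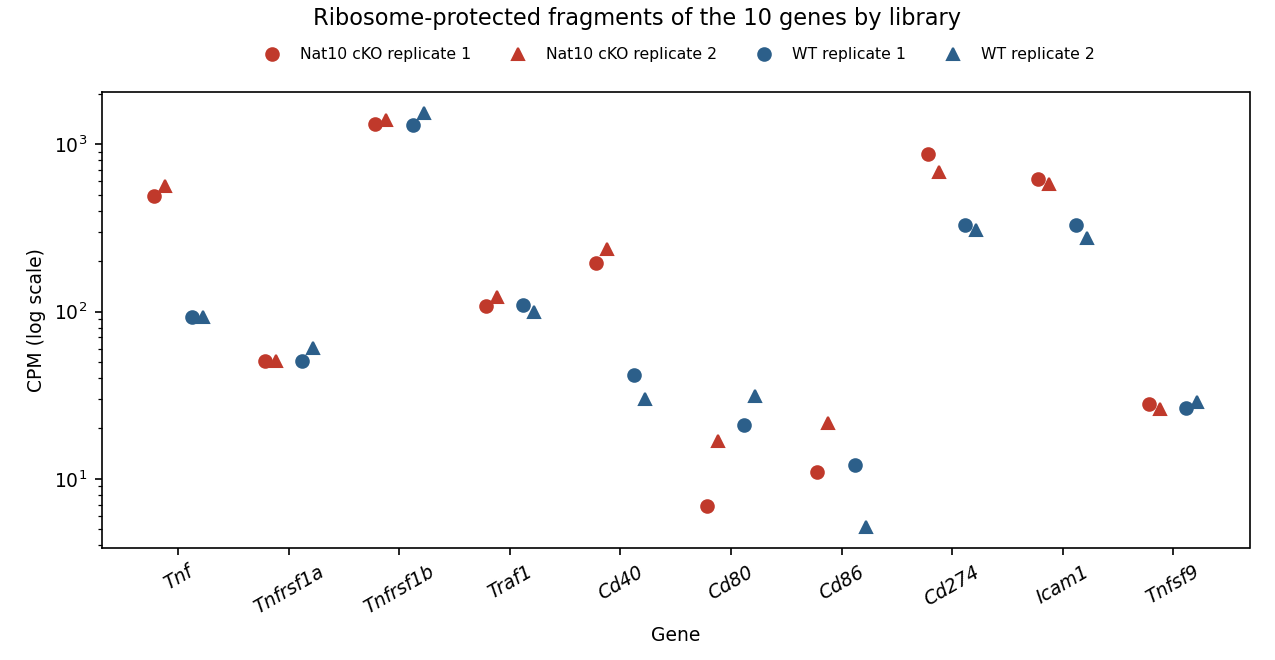
Each point is 1 library's CPM (log scale) of 1 gene, with Nat10 cKO in red left of WT in blue, circles for replicate 1 and triangles for replicate 2. Tnf, Cd40, Cd274 and Icam1 are higher in both cKO libraries than in both WT libraries, and the values of Tnfrsf1a, Tnfrsf1b, Traf1 and Tnfsf9 overlap or lie close together.

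Tnf (ENSMUSG00000024401, chromosome 17, 35418357 to 35420983, minus strand, GRCm39 as for all genes below) encodes the cytokine itself. It had 715 and 834 counts in cKO, with 84 and 271 counts in WT. Scaled to library size, these are 490 and 562 CPM in cKO, with 92.6 and 92.9 CPM in WT. Both cKO libraries were far above the WT libraries, which hardly differed from each other despite their unequal depth. The fold was 5.67 (log2 2.50, SE 0.20), a value above those of 98.6% of all genes tested. With any 1 library left out the log2 fold change stayed between 2.42 and 2.62. Of the neighbouring TNF-family genes, Lta had no count in any library and Ltb had 3 counts in WT replicate 1 alone.

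Both TNF receptor genes were measured at close to the same level in the 2 genotypes. Tnfrsf1b, the gene of TNFR2 (chromosome 4, 144940033 to 144973440, minus strand), had 1322 and 1393 CPM in cKO, with 1295 and 1534 CPM in WT. Its log2 fold change of -0.06 had an SE of 0.13 and a 95% interval from -0.36 to 0.24. Tnfrsf1a, the gene of TNFR1 (chromosome 6, 125326325 to 125339447, plus strand), had 50.8 and 50.6 CPM in cKO, with 50.7 and 60.7 CPM in WT, for a log2 fold change of -0.14 (SE 0.38) and a wider interval, from -1.003 to 0.71. For both genes the WT range covered at least 1 cKO library. An interval of this width does not show that the receptor genes were alike between genotypes.

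The 2 receptor genes were also set against each other within each library. There were 26.0 and 27.6 counts of Tnfrsf1b for each count of Tnfrsf1a in cKO, with 25.5 and 25.3 in WT. Tnfrsf1b made up 96.3% and 96.5% of their joint counts in cKO and 96.2% in both WT libraries, and the widest exact binomial 95% interval, that of WT replicate 1, ran from 95.0025% to 97.2%. A share this near to its ceiling can hardly move, and Tnfrsf1a had 46 to 177 counts a library, so a modest change in the ratio would not be seen. The ratio needs no scaling of libraries and, since gene lengths were not used here, says nothing of which receptor is translated more. Tnf set against Tnfrsf1b, a pair chosen after their values had been seen, differed between the genotypes: Tnf made up 27.1% and 28.7% of their joint counts in cKO and 6.68% and 5.71% in WT. Such intervals cover counting error only and leave out the spread between libraries. They may be too narrow even for counting error, since reads from PCR are not independent molecules.

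Traf1 (chromosome 2, 34831762 to 34851784, minus strand) encodes a TRAF adaptor that binds TNFR2 and CD40 together with TRAF2. It had 108 and 123 CPM in cKO, with 109 and 99.1 CPM in WT, and the groups overlapped. The log2 fold change was 0.15 (SE 0.28, 95% interval -0.48 to 0.78).

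Cd40 (ENSMUSG00000017652, chromosome 2, 164897547 to 164914868, plus strand) encodes the receptor by which T cells license antigen-presenting cells. It had 286 and 349 counts in cKO, with 38 and 88 counts in WT, which are 196 and 235 CPM in cKO, with 41.9 and 30.2 CPM in WT. Both cKO libraries were several times higher than the higher WT library. At 6.11-fold (log2 2.61, SE 0.31) it had the highest fold change of the 10 genes, and the log2 value ranged from 2.38 without WT replicate 2 to 2.87 without WT replicate 1. Its ligand gene Cd40lg, which activated T cells express, had no count in any library.

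Cd274 (chromosome 19, 29344855 to 29365495, plus strand), the gene of the inhibitory ligand PD-L1, had 869 and 686 CPM in cKO, with 329 and 308 CPM in WT, from 1267 and 1018 counts against 298 and 897. Both cKO libraries were higher than both WT libraries, and the cKO pair differed more than the WT pair. The fold was 2.45 (log2 1.29, SE 0.18), with a log2 range of 1.14 to 1.47 over the fits that left out 1 library. The gene of the second PD-1 ligand, Pdcd1lg2, and Pdcd1, the gene of PD-1, had no count in any library. Icam1 (chromosome 9, 20927281 to 20940113, plus strand) had 619 and 582 CPM in cKO, with 328 and 275 CPM in WT. Its groups did not overlap either, and its fold of 1.998 (log2 0.998, SE 0.17) was the smallest of the 4 genes past the threshold. It was not past the threshold without cKO replicate 1 or without cKO replicate 2, in fits where the spread comes from the WT pair alone, and the log2 value stayed between 0.89 and 1.16 over the fits that left out 1 library.

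The CD28 ligand genes Cd80 (chromosome 16, 38275923 to 38316697, plus strand) and Cd86 (chromosome 16, 36424231 to 36486443, minus strand) were thinly covered. Cd80 had 10 and 25 counts in cKO, with 19 and 91 counts in WT, or 6.86 and 16.9 CPM in cKO, with 21.0 and 31.2 CPM in WT. The 2 groups did not overlap, but the exact 95% counting interval of cKO replicate 2, from 10.9 to 24.9 CPM, contained the value of WT replicate 1. The log2 fold change was -1.14 with an SE of 0.76, and it ranged from -1.90 without cKO replicate 2 to -0.61 without cKO replicate 1. Cd86 had 16 and 32 counts in cKO and 11 and 15 in WT, or 10.97 and 21.6 CPM in cKO, with 12.1 and 5.14 CPM in WT, and its groups overlapped. Its log2 fold change was 0.95 with an SE of 0.99, from 0.38 without cKO replicate 2 to 1.69 without WT replicate 1. Both values rest on 10 to 91 counts a library.

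Set against each other within a library, Cd80 made up a smaller part of the pair in cKO. Its share of the counts of Cd80 and Cd86 together was 38.5% (exact binomial 95% interval 20.2% to 59.4%) and 43.9% (30.7% to 57.6%) in the cKO libraries. In the WT libraries it was 63.3% (43.9% to 80.1%) and 85.8% (77.7% to 91.9%). The shares of the groups did not overlap, but the intervals of WT replicate 1 and both cKO libraries did, so the distance between the groups leans on WT replicate 2. Tnfsf9 (chromosome 17, 57412325 to 57414757, plus strand), the gene of 4-1BB ligand, had 28.1 and 26.3 CPM in cKO, with 26.5 and 28.8 CPM in WT; the groups overlapped, at a log2 fold change of -0.03 (SE 0.54). Its 95% interval, from -1.25 to 1.20, was wide, and each library but one held 41 or fewer counts. Tnfrsf9, which encodes its receptor 4-1BB, had 10 and 11 counts in cKO and 6 and 0 in WT.

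**Figure D2:**
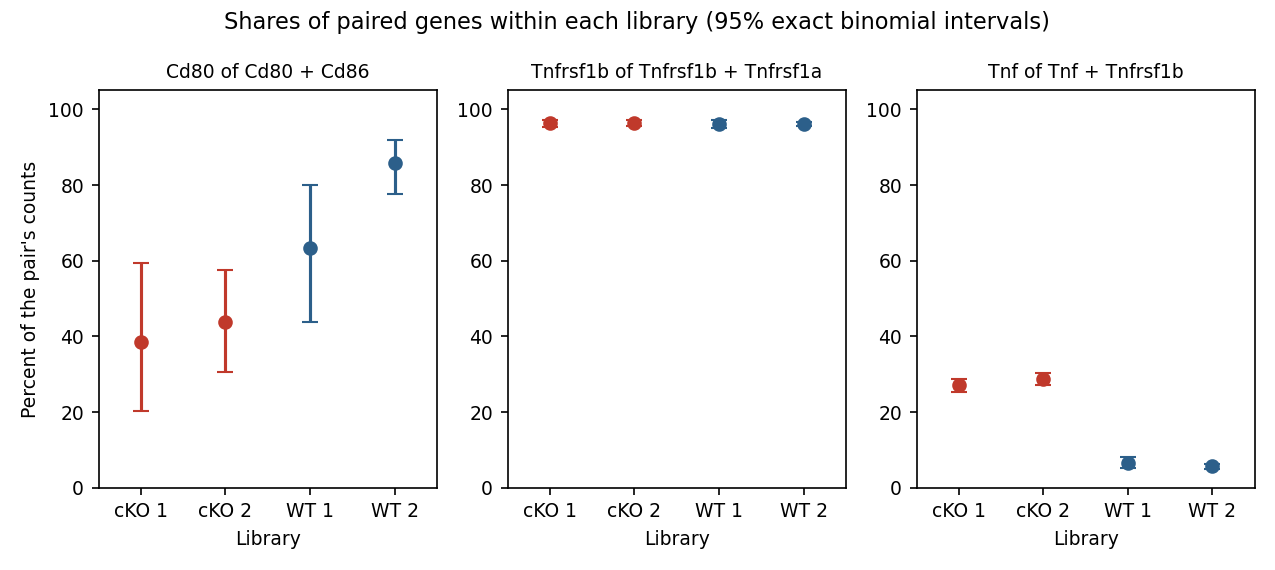
Each panel shows, per library, the percent of a pair's joint counts that belong to its first gene, with exact binomial 95% intervals, Nat10 cKO in red left of WT in blue. Tnfrsf1b stays near 96% of the receptor pair in every library, while Cd80 is at 38.5% and 43.9% in cKO and 63.3% and 85.8% in WT, and Tnf is at 27.1% and 28.7% in cKO and 6.68% and 5.71% in WT.

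**Figure D3:**
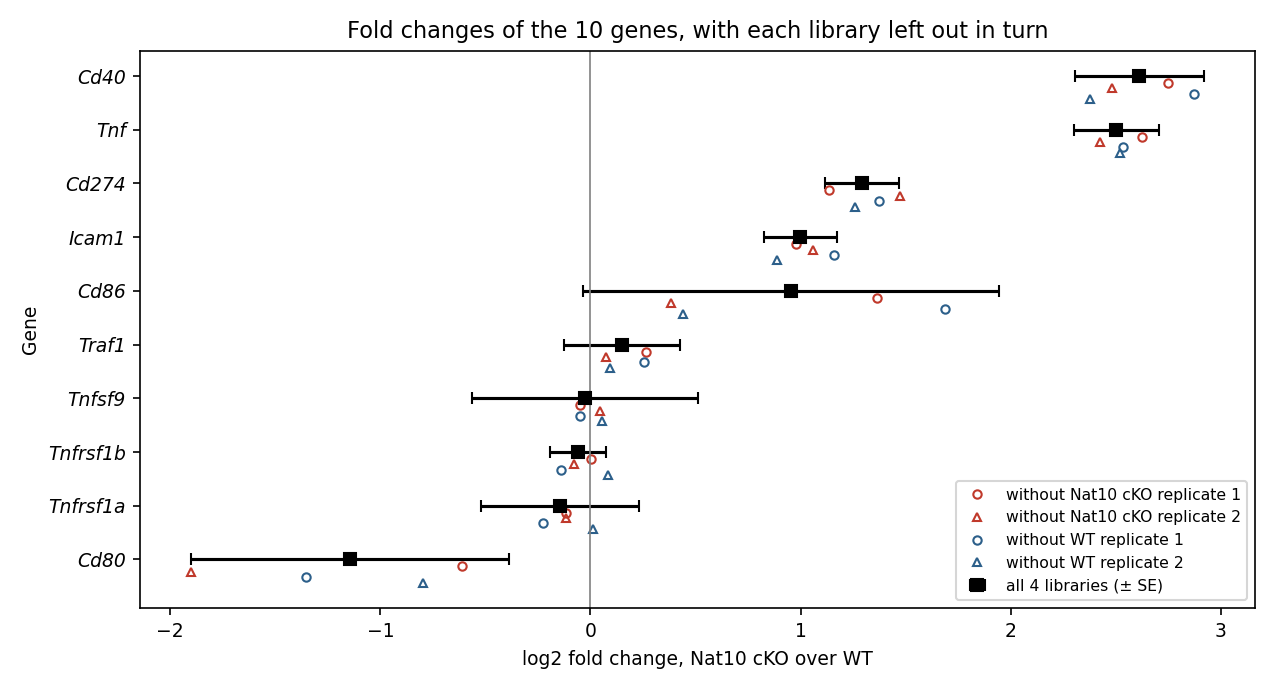
Black squares are the log2 fold changes (cKO over WT) of the 10 genes from the fit of all 4 libraries, with bars of 1 SE, and open symbols are the values with 1 library left out. Cd40, Tnf, Cd274 and Icam1 stay well above 0 in every such fit, Cd80 and Cd86 spread widely, and the values of Tnfrsf1a, Tnfrsf1b and Tnfsf9 cross 0.

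Markers of other cell types were examined beside these values because B cells and dendritic cells also carry CD40, CD80 and CD86. Of 10 dendritic cell markers, the cKO libraries had 7 and 5 at 0, with 5 and 8 at 0 in WT. Xcr1, Clec9a, Batf3 and Cd209a had no count in any library. The list summed to 101 and 114 CPM in cKO, with 159 and 146 CPM in WT. Most of the dendritic sum came from Itgax and Fscn1, each lower in both cKO libraries. Ccr7, too low to be tested, was higher in both cKO libraries, with 7 and 9 counts in cKO and 2 and 0 in WT. Of 7 B cell markers, Ms4a1 and Cd79a were at 0 in all 4 libraries, with a list sum of 256 and 269 CPM in cKO, with 203 and 195 CPM in WT. Nearly all of that sum was Blnk, which macrophages also express (236 and 244 CPM in cKO, with 162 and 136 CPM in WT). Ighm went the other way, at 1.37 and 3.37 CPM in cKO, with 23.2 and 26.8 CPM in WT, and Cd79b and Pax5 had counts in WT replicate 2 alone (41 and 14). T cell markers summed to at most 7.41 CPM in any library, with Cd3e, Cd3g, Cd3d, Cd8a and Cd2 at 0 throughout, and all 6 NK cell markers were at 0. Stromal markers had a sum of 620 and 599 CPM in cKO, with 4481 and 5807 CPM in WT, most of it from Col1a1 and Col1a2. Of the 11, 6 fell in cKO (edgeR, adjusted p under 0.05), while Pdgfrb (23.3 and 12.8 CPM in cKO, with 8.82 and 1.71 CPM in WT) and Runx2 (8.92 and 12.8 CPM in cKO, with 4.41 and 0 CPM in WT) were higher in both cKO libraries on few counts and did not pass. Lum and Thy1 were at 0 in both cKO libraries and in WT replicate 1, as Runx2 and Thy1 were in WT replicate 2. Neutrophil markers summed to 836 and 785 CPM in cKO, with 1337 and 1523 CPM in WT, with Ly6g at 0 in all 4, and endothelial markers to 76.1 and 111 CPM in cKO, with 21.0 and 34.0 CPM in WT, with Cdh5 and Tek at 0 throughout. Of the endothelial list Kdr rose, at 50.8 and 89.7 CPM in cKO, with 8.82 and 9.26 CPM in WT (adjusted p = 0.0349, edgeR). Vwf was also higher in both cKO libraries but did not pass, at 24.7 and 18.2 CPM in cKO, with 6.62 and 12.3 CPM in WT. Pecam1, too low to be tested, had 0.686 and 2.70 CPM in cKO, with 4.41 and 12.3 CPM in WT. Mast cell and basophil markers were at 0 except for 1 gene in each WT library. The part of the stromal, neutrophil and endothelial differences in the values above was not tested.

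The genes whose profile over the 4 libraries lay nearest to that of Tnf were, in order, Cxcl3, H2-M2, Cd40, Gbp2 and Phf11b, among 4244 protein-coding genes whose log2 CPM averaged 5 or more. Likeness was the Euclidean distance between log2 CPM values centred on each gene's own mean, and was 0.25 for Cxcl3 and 0.37 for Phf11b. Cxcl3, a neutrophil-attracting chemokine gene, had 402 and 546 CPM in cKO, with 82.7 and 96.0 CPM in WT. Gbp2, a guanylate-binding protein gene, had 693 and 783 CPM in cKO, with 151 and 108 CPM in WT. With 4 libraries in 2 groups, this order describes little more than a like difference between the groups.

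Promoter windows from RefSeq (GRCm38.p6, a build other than the GRCm39 of the counts) were matched by symbol for 7 of the 10 genes: Tnf, Tnfrsf1a, Tnfrsf1b, Traf1, Cd80, Cd274 and Icam1. The 250 bases before the start are printed for Tnf (chr17:35202008-35202257, minus strand), Icam1 (chr9:21015690-21015939, plus strand) and Cd274 (chr19:29367188-29367437, plus strand), which were higher in cKO, and for Cd80 (chr16:38458683-38458932, plus strand), which pointed the other way. Capitals mark every match to the motifs searched, which were the NF-kappa-B consensus, TGANTCA (AP-1), GAAA followed by any pair of bases and GAAA again (the interferon-stimulated response element), TTCNNNGAA (STAT) and TATAAA (the TATA box), on both strands.
Tnf: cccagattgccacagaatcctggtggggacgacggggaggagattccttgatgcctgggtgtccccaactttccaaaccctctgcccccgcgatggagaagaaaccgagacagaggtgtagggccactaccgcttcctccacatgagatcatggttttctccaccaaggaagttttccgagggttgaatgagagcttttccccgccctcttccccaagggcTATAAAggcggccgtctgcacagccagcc
Icam1: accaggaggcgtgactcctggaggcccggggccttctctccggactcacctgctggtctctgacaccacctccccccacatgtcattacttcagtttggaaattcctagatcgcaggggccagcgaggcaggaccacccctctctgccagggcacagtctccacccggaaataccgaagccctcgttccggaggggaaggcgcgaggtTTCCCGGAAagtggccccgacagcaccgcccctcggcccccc
Cd274: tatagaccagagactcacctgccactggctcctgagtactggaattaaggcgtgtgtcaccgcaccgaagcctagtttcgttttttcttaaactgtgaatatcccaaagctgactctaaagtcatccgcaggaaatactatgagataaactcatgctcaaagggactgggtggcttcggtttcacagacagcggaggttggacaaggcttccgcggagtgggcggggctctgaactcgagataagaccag
Cd80: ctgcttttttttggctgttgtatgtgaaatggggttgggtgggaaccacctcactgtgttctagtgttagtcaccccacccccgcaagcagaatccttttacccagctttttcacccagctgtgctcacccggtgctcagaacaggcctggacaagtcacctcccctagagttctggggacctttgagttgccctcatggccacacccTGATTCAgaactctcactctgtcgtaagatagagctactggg

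The Tnf window held a TATAAA from 29 to 24 bases before the start, a motif present in 13.6% of all 32851 promoter windows of 300 bases (250 before to 50 after the start). The match of Icam1 was TTCCCGGAA, from 42 to 34 bases before the start, and TTCNNNGAA was also found in the windows of Tnfrsf1a and Tnfrsf1b, 3 of the 7 genes against 8.30% of all windows. That count depended on the window: in the 100 bases before the start alone it was 1 of 7, Icam1, against 2.55% of all promoters. Icam1 and Cd80 had a TATAAA match after the start, where no sequence is printed. Cd80 had a TGATTCA from 42 to 36 bases before the start, and TGANTCA occurs in 7.81% of all windows. Tnfrsf1b held the one match to the interferon-stimulated response element (3.44% of all windows), which overlaps no other motif. The NF-kappa-B consensus was searched as GGGRNWYYCC alone (R is A or G, W is A or T, Y is C or T, N is any base). It is present in 4.51% of all windows and was found in none of the 7, which says only that these letters are not in this window. Stretches that differ from it by a base were not counted. The printed Icam1 bases hold tggaaattcc and the printed Tnf bases hold aggagattcc, each differing from these letters only at its first base. The printed Cd274 bases hold tgaatatccc, which differs only at its first base from the same letters read on the other strand. These are examples, and no full search for such stretches was made. No motif searched was shared by the higher genes Tnf, Icam1 and Cd274 within the bases printed, and the Cd274 window held no match. A match is a description of the letters and not a binding site. The printed stretches held 10 CpG dinucleotides for Tnf, 15 for Icam1, 11 for Cd274 and 3 for Cd80, beside a median of 6 over the same 250 bases of all windows.

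The other genes of these pathways were taken from lists of genes that exclude the 10 described above. Of 23 tested genes of TNF receptor signalling, from Adam17 to the necroptosis gene Mlkl, 1 rose and none fell (edgeR, adjusted p under 0.05), with a median log2 fold change of 0.25; limma-voom called 3 higher, and the fit without WT replicate 1 called 4 higher and 3 lower. The gene that rose with edgeR was Tnfaip3, which encodes A20, the ubiquitin-editing enzyme that limits NF-kappa-B activity and is itself induced by TNF. It had 904 ± 147 CPM in cKO, with 274 ± 41.1 CPM in WT (SD, n = 2 each), a log2 fold change of 1.73 (SE 0.19, adjusted p = 0.00420, edgeR), with a log2 range of 1.57 to 1.92 when single libraries were left out. Of 13 tested CD40 and TRAF adaptor genes none passed with the main edgeR fit, the one used above, and the median was 0.24. At an unadjusted edgeR p under 0.05 there was 1, beside 965 of the 7953 genes tested. DESeq2, limma-voom, edgeR with no low-count filter and edgeR with a filter of 5 CPM in all libraries each called 1 higher. The fit without WT replicate 1, whose spread comes from the cKO pair alone, called more. The smallest p of this list in the main fit was that of Tnip3, the gene of an A20-binding inhibitor of NF-kappa-B. It had 85.0 ± 6.81 CPM in cKO, with 21.1 ± 1.29 CPM in WT (log2 2.01, SE 0.40, adjusted p = 0.0507, edgeR). Next to it came Tnfaip8, a TNF-induced gene, at 61.7 ± 31.0 CPM in cKO, with 31.9 ± 12.6 CPM in WT (log2 0.98, SE 0.52).

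Among the other ligands and receptors of the TNF superfamily, 13 of 39 had no count in any library and 9 could be tested (median log2 fold change -0.16). None of these passed with the main edgeR fit, DESeq2 or limma-voom, while edgeR with no low-count filter called 1 higher of 26 tested. The 1 gene of the 9 with an unadjusted edgeR p under 0.05 was Tnfsf15, beside 965 of the 7953 genes tested. Tnfsf15, the gene of the ligand TL1A, had 31 and 24 counts in cKO, with no count in WT, so it passed the filter on low counts through cKO alone and its p supports nothing. Against a floor of 3 counts over the WT group it was at least 23.8-fold higher in cKO. Fas, the death receptor gene, had 118 ± 4.81 CPM in cKO, with 83.0 ± 33.9 CPM in WT (log2 0.53, SE 0.35). Tnfrsf8, the gene of CD30, was named after its values were seen, with 9 and 22 counts in cKO and none in WT. It was too low to be tested and at least 13.4-fold higher by the same floor.

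Of 13 tested genes among the other costimulatory and checkpoint genes, 1 rose and none fell, with a median of -0.14. At an unadjusted edgeR p under 0.05, 4 were higher and 2 lower, beside 965 of the 7953 genes tested in either direction. With limma-voom 4 rose and 1 fell, and with no filter on low counts 3 rose. The fit without WT replicate 1 called 5 higher and 3 lower, and the fit without WT replicate 2 called 2 higher and 1 lower. The gene that rose with edgeR was Slamf7, a self-binding receptor of macrophages and lymphocytes, with 1243 ± 71.8 CPM in cKO, with 578 ± 99.9 CPM in WT (log2 1.11, SE 0.16, adjusted p = 0.0128, edgeR). The T-cell-side receptor genes Ctla4, Icos, Pdcd1 and Tigit had no count in any library, and Cd28 had 0 and 1 counts in cKO and 0 and 35 in WT. The following were named after their values were seen, and none passed. Icosl, the gene of the ICOS ligand, had 13 and 24 counts in cKO and none in WT, at least 16.0-fold higher in cKO by the floor of 3 counts over the WT group. It too passed the filter through cKO alone, so its place among the 4 higher at an unadjusted p supports nothing. Cd200, whose product restrains myeloid cells through its receptor, had 74.1 ± 6.78 CPM in cKO, with 23.5 ± 2.11 CPM in WT (log2 1.64, SE 0.41). Cd48 and Cd276 had negative log2 fold changes, of -0.77 (SE 0.20) for Cd48 and -2.18 (SE 0.75) for Cd276. Cd276 had 8 and 12 counts in cKO and 21 and 112 in WT. Of the cKO libraries only replicate 2 reached the filter, so Cd276 was tested because of its WT counts. Its place among the 2 lower at an unadjusted p supports nothing.

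The leukocyte adhesion list held partners of ICAM-1 together with other adhesion genes. Of 8 tested leukocyte adhesion genes none was past the threshold with the main edgeR fit, with a median log2 fold change of -0.07. At an unadjusted edgeR p under 0.05 there were 4, 2 in each direction, beside 965 of the 7953 genes tested. DESeq2 called 1 of the 8 higher, and limma-voom 2 higher and 1 lower. With edgeR, the filter of 5 CPM in all libraries gave 1 higher, and no low-count filter gave 2 higher of 14 tested. Itgal and Itgb2, which encode the chains of LFA-1, had log2 fold changes of 0.20 (SE 0.16) and -0.32 (SE 0.11). The other integrin genes Itgam and Itgax had -0.37 (SE 0.30) and -0.82 (SE 0.33). The smallest p-values were those of Itga4, at 345 ± 31.2 CPM in cKO, with 172 ± 48.1 CPM in WT (log2 1.02, SE 0.24, adjusted p = 0.113, edgeR), and Itgb1, at 1138 ± 19.2 CPM in cKO, with 802 ± 107 CPM in WT (log2 0.51, SE 0.15), which together form the VCAM-1 receptor VLA-4. Over all 5 lists, 2 of 64 tested genes passed, or 3.12%, beside 1.40% of all genes tested. None of the 64 fell with the main edgeR fit or DESeq2, and 2 did with limma-voom. At an unadjusted edgeR p under 0.05, 9 were higher and 5 lower. Tnfsf15 and Icosl, which passed the filter through cKO alone, are among the 9. Cd276, which was tested because of its WT counts, is among the 5. Without WT replicate 2 the lists gave 6 higher and 1 lower, and without WT replicate 1 they gave 18 higher and 7 lower, each from a fit whose spread comes from the cKO pair alone.

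**Figure D4:**
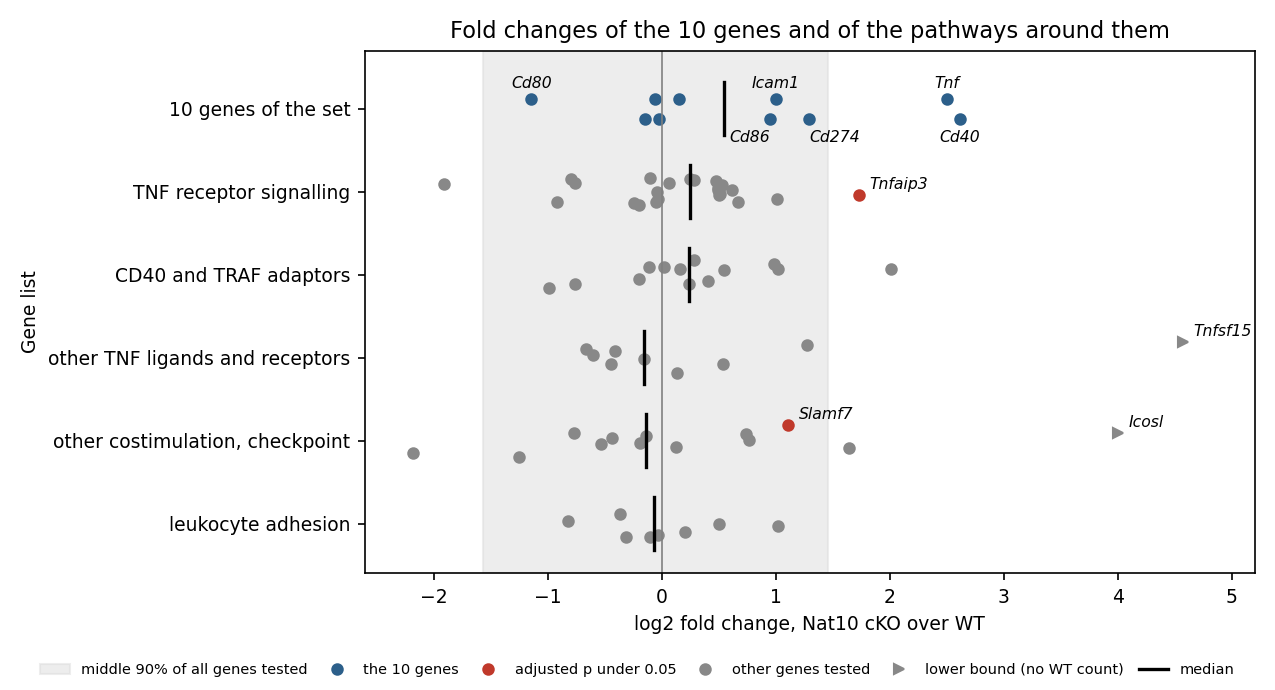
Points are log2 fold changes (cKO over WT) of the 10 genes in blue and of the tested genes of 5 pathway lists, red where the adjusted p was under 0.05 (edgeR), with list medians as black bars and the middle 90% of all genes tested shaded. Triangles are lower bounds for Tnfsf15 and Icosl, which had no WT count. Tnfaip3 and Slamf7 are the list genes past the threshold, and Tnf and Cd40 lie outside the shaded band.

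In the pathway annotation that the authors deposited with the counts, 4 pathways hold 5 of the 10 genes each: TNF signalling (Tnf, Tnfrsf1a, Tnfrsf1b, Traf1 and Icam1), cell adhesion molecules (Cd40, Cd80, Cd86, Cd274 and Icam1), NF-kappa-B signalling (Tnf, Tnfrsf1a, Traf1, Cd40 and Icam1) and cytokine-cytokine receptor interaction (Tnf, Tnfrsf1a, Tnfrsf1b, Cd40 and Tnfsf9). These pathways were added as lists after the data had been seen, with the 10 genes left out, so their counts are a description, to be read beside the 1.40% of all genes tested that passed. Of 70 other tested genes of TNF signalling, 9 rose and 1 fell, with a median log2 fold change of 0.27. The 4 with the highest fold changes were Cxcl1 (log2 5.80), Il6 (log2 4.68), Il1b (log2 3.27) and Cxcl2 (log2 2.88), which encode inflammatory chemokines and cytokines. Cxcl1 had 160 and 183 counts in cKO, with 4 and 3 counts in WT. It passed the filter on low counts through cKO alone, so its p supports nothing and its fold rests on few WT counts. Il6 had 193 and 341 counts in cKO, with 15 and 6 counts in WT, or 16.5 and 2.06 CPM in WT. Of the WT libraries only replicate 1 reached the filter, so Il6 was tested because of its cKO counts and its p supports nothing either. The same holds for Il6 among the cytokine and receptor genes below. The gene that fell was Mmp9, a matrix metalloproteinase of osteoclasts (log2 -0.65). Of 65 other tested NF-kappa-B genes 8 rose and none fell, with a median of 0.23, and of these Cxcl3 (log2 2.40) stood next after Cxcl1, Il1b and Cxcl2. Of 72 other tested cytokine and receptor genes 8 rose and 2 fell, with a median of 0.38. Il1a (log2 2.88), an interleukin-1 gene, was among the risers, and Cxcr4, a chemokine receptor gene (log2 -2.03), and Csf1r, the M-CSF receptor gene (log2 -0.80), fell. These 3 lists share genes: of the 16 genes called in any of them, 4 were in all 3. Cxcl1 was 1 of these 4.

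Of 48 other tested cell adhesion molecule genes, 3 rose and 1 fell, with a median of 0.02. H2-Aa and H2-M2, both of the major histocompatibility complex, and the proteoglycan gene Vcan rose (log2 3.06, 2.82 and 1.51), and Siglec1, a macrophage sialic acid receptor gene, fell (log2 -1.12). All 4 counts moved with the processing. With limma-voom TNF signalling had 14 higher and 2 lower, cell adhesion molecules 8 and 4, NF-kappa-B 14 and 0, and cytokines and receptors 14 and 4. Without WT replicate 1 they had 19 and 7, 11 and 7, 16 and 2, and 27 and 5 in the same order. Cell adhesion molecules also had 6 higher and 1 lower with DESeq2, 8 and 1 with no filter and 8 and 2 without WT replicate 2. Without cKO replicate 1 none of the TNF signalling genes fell and 8 rose, and with either of the cKO libraries left out 1 of the cytokine and receptor genes fell.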

How the data were processed

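The authors deposited raw counts of ribosome-protected fragments per gene, whole numbers per the file headers, in 1 table of 22417 genes with 4 library columns matched to samples by their descriptions. Per the submitters' processing notes, fastp, Bowtie, STAR, HTSeq and GRCm39 (mm39) were used, with no versions or roles stated. The sources used here do not state the strand setting, footprint lengths or the handling of duplicates and multi-mapping reads. Totals ran from 906937 to 3014620 counts. After filterByExpr (at least 10 counts in enough libraries and 15 in all) and TMM scaling, genes were fitted with edgeR 4.0.16 (R 4.3.3; quasi-likelihood, robust, genotype alone), with Benjamini-Hochberg adjustment over 7953 genes at 0.05. Differences are cKO minus WT on the log2 scale. Their standard errors are the fold change over the root of its F statistic. Alternatives used limma 3.58.1, DESeq2 1.42.0, other scalings and filters, a replicate block and each library left out. The pipeline was tested on simulated counts. No pair of libraries was a copy. The genes, lists and tests were chosen with earlier results of these data known. Named genes were the 10 members, list genes past the threshold (up to the 4 largest changes in each direction, otherwise the 2 smallest p; the same for lists from the deposited annotation), and the 5 profiles nearest to Tnf. An order of levels per coding length was planned but lengths were not used here. A B cell marker of the original list is not reported here.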

Additional observations from a re-analysis of the deposited data

How the results depend on the processing

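The 10 genes were chosen with this contrast in view, so their refits are a description. Of 119 refits of single genes over 12 alternatives, 112 kept both direction and side of the threshold. Icam1 missed the threshold without cKO replicate 1 or 2 at log2 0.98 and 1.06. With single libraries left out, the genes near 0 changed sign in 5 of these refits: Tnfrsf1a ranged from -0.23 without WT replicate 1 to 0.013 without WT replicate 2, Tnfrsf1b from -0.14 without WT replicate 1 to 0.084 without WT replicate 2, with 0.0041 without cKO replicate 1, and Tnfsf9 from -0.048 without cKO replicate 1 to 0.055 without WT replicate 2, with 0.044 without cKO replicate 2. The median of the 10 was 0.15 with a filter of 5 CPM in all libraries, which drops Cd86, and 0.23 to 0.71 with single libraries left out. Genes called over the whole table (51 higher, 60 lower) were 114 and 108 with DESeq2, 485 and 206 with limma-voom, 184 and 179 with no low-count filter, 94 and 97 with the CPM filter, and 35 to 1354 and 38 to 1066 with single libraries left out. List genes called (2 higher, 0 lower) were 4 higher with DESeq2, 10 higher and 2 lower with limma-voom, 8 higher with no filter, 4 higher with the CPM filter, and 2 to 18 higher and 0 to 7 lower with single libraries left out. The cause of these shifts was not tested. The replicate numbers gave no sign of pairing (correlation of same-numbered deviations -0.02). The fit with the replicate block called 67 genes higher and 76 lower over the whole table and 2 list genes higher, and it changed no call among the 10. Depth limits Cd80, Cd86 and Tnfsf9, with 10 to 91 counts a library.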
